A study of Mus musculus with 4 samples.

Results

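The genes described here encode the constitutive proteasome, with its assembly chaperones, its activators and the protein named as its inhibitor. They were chosen by name, as every gene whose symbol is Psm followed by 1 letter from a to g and a number, without the 3 interferon-inducible subunits Psmb8, Psmb9 and Psmb10. This gave 45 genes of the 27179 in the FPKM table. FPKM is the number of sequenced fragments of a gene scaled by its length and by the mapped reads of the library, so that levels can be set side by side between genes. The 45 genes comprise 8 alpha and 8 beta subunits of the core particle, 9 subunits of the base and 8 of the lid of the regulatory particle, 3 chaperones of base assembly, 4 chaperones of core assembly, 4 activators and 1 inhibitor. RNA came from leukemia-initiating cells (LICs, called LSC in the labels) that were sorted from the bone marrow of C57BL/6 mice aged 6 weeks with acute myeloid leukemia. There were 4 libraries, 2 labelled WT (wild type) and 2 labelled CD274-null, the latter from leukemia without the immune checkpoint ligand CD274 (PD-L1). Leukemia in both groups was made with the MLL-AF9 fusion oncogene, carried with YFP by a retrovirus into lineage-negative fetal liver cells that were transplanted into irradiated mice, so that host cells can remain in the marrow. The LICs were taken as Mac-1+/c-Kit+ cells. The round of transplantation is not given for these libraries, the methods name tissue as the source of RNA although the labels name sorted cells, and nothing says that the libraries of a group came from separate mice, so p-values measure only the spread between these samples.

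The proteasome is the main protease of the cytosol and nucleus for proteins tagged with ubiquitin. Its barrel-shaped core holds the cutting sites in inner rings of beta subunits, closed off by outer rings of alpha subunits, and the regulatory particle binds the substrate, removes its ubiquitin, and unfolds and feeds it with a ring of ATPases. Cells exposed to interferon exchange the 3 cutting subunits for inducible ones (the immunoproteasome), and the transcription factor Nfe2l1 raises the genes of the constitutive particle together when proteolysis is short. Cells that make much protein, plasma cells above all, are known to depend on it heavily.

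To show what the genes have in common outside their names, the RefSeq promoters of GRCm38.p6 (250 bases before to 50 after the start of a transcript) were searched for 4 motifs on both strands, with a value for 37 of the 45 genes. CCGGAA, the core bound by ETS factors, was in a promoter of 20 of the 37 genes (54.1%), of 16.7% of all 27025 genes with a promoter and of 32.4% of the 9588 tested among them. TGACNNNGC, the core of the antioxidant response element to which Nfe2l1 and Nfe2l2 bind with small Maf proteins, was in 6 of the 37 (16.2%), against 14% of all genes and 16.9% of the tested genes. CCAAT, the box bound by NF-Y, was in 13 of the 37 (35.1%), against 41.1% of all genes and 43.5% of the tested genes. The palindromic motif of the nuclear respiratory factor was in 7 (18.9%), against 5.19% and 11.8%. None of the 3 inducible subunits had CCGGAA or TGACNNNGC in these windows and 1 of the 3 had CCAAT. A match is a string of letters and not a shown binding site. The motifs may share bases where they lie side by side, and the reverse complement of each was counted with it.

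The windows below are shown for members whose values are described further on, chosen after these were seen. Psma6, Psmd14, Psme4 and Psmd9 lay lowest in the libraries labelled CD274-null relative to WT, Psmc1 lay lowest and Psmc5 highest of the base, Psmd11 lay highest of the lid, and Psmb5 and Psmb6 carry cutting sites. Each window is 41 bases long, lies before the start of a RefSeq transcript (for Psmb6 one that starts inside the gene span given further on) and is written 5′ to 3′ on the strand of the gene, with the motif or its reverse in capitals.
Psma6 (CCAAT reversed, chr12:55384068-55384108, plus strand): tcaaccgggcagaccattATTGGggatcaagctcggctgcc
Psmd14 (CCAAT reversed, chr2:61711517-61711557, plus strand): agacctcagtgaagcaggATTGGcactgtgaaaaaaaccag
Psmd9 (TGACNNNGC, chr5:123228143-123228183, plus strand): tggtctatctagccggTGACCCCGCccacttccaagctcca
Psmb5 (TGACNNNGC, chr14:54618018-54618058, minus strand): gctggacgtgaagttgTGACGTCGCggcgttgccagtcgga
Psmb6 (TGACNNNGC, chr11:70525316-70525356, plus strand): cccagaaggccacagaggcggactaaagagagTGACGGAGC
Psme4 (CCGGAA, chr11:30771705-30771745, plus strand): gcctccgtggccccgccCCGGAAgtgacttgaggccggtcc
Psmc1 (CCGGAA reversed, chr12:100110158-100110198, plus strand): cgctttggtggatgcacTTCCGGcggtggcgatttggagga
Psmc5 (CCGGAA, chr11:106256073-106256113, plus strand): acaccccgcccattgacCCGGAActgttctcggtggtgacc
Psmd11 (CCGGAA reversed, chr11:80428574-80428614, plus strand): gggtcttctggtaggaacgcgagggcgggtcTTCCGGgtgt
The CCGGAA motif begins 10 bases before the start in Psmd11, 27 in Psmc1, 53 in Psme4 and 95 in Psmc5. The TGACNNNGC motif begins 9 bases before the start in Psmb6, 31 in Psmd9 and 47 in Psmb5.

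The members lie on 16 chromosomes, with 8 on chromosome 11 and 6 each on chromosomes 2 and 14. On chromosome 14, Psmb5 and the thymus-restricted Psmb11 are separated by 7314 bases, and the paired activator genes Psme1 and Psme2 by 5912 bases. By the RefSeq annotation, 12 members share part of their span with another gene, among them Psmd1 with Htr2b, Psme4 with Erlec1, Psma3 with 3110056K07Rik, Psmd10 with Atg4a and Psmf1 with Tmem74b, and the strand setting of the counting is not given in the sources used here. RefSeq also names 7 copies after Psma5, Psmb5, Psmb6, Psmb7 and Psme2, which are not analysed here, so the levels of these 5 genes are uncertain where reads were split.

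Whole reads could be recovered from the FPKM steps for all 17083 genes above 0 in at least 2 libraries, up to a factor shared by the libraries, and they summed to between 8434003 and 11039840 per library. The tested members rest on 126 to 3388 recovered reads per library. The names WT and CD274-null are those of the labels throughout, and Cd274 itself did not separate them, at 2.80 and 0.945 FPKM in WT against 1.43 and 2.29 in CD274-null (log2 fold change 0.09, with a limma adjusted p = 0.955), so each direction rests on the labels. A value per gene does not show which exons the reads came from. The libraries differ in more than the label. Xist FPKM was 2.57 in WT replicate 1 and 51.1 to 107 in the other libraries, and the summed FPKM of 4 Y-linked genes was 86.0, 66.2, 0.0460 and 29.4, so WT replicate 2 and CD274-null replicate 2 held both Xist and Y-linked RNA. Of 8 B and plasma cell markers, 5 had a mean FPKM under 0.5, and the summed FPKM of the list was 22.0 and 45.3 in WT against 264 and 239 in CD274-null, most of it Igkc in CD274-null. The 4 neutrophil markers summed to between 1757 and 10688, and all 5 T cell markers had a mean FPKM under 0.5. The 3 antigen-presenting cell markers summed to 14.7 and 15.8 in WT against 68.1 and 39.2 in CD274-null, and the 5 macrophage markers to 146 and 142 against 88.9 and 105. The first difference lay in Cd74 and H2-Aa, while H2-Ab1 overlapped (10.5 and 12.3 against 16.1 and 10.4). Most of the macrophage sum was Vcam1, at 117 and 92.3 in WT against 53.7 and 59.8 in CD274-null. For Adgre1, C1qa, C1qb and C1qc the groups overlapped. The sort markers Itgam (Mac-1) and Kit were present in all 4 libraries, and Hoxa9 and Meis1, targets of MLL-AF9, summed to between 111 and 116. Plasma cells and neutrophils also use the proteasome, and the part of any other cell in the values below was not tested. In bulk RNA, fewer cells of a type and less RNA per cell cannot be told apart.

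The first question was how much of each subunit the LICs expressed. Of the 45 members, 43 had a mean FPKM of at least 0.5 and were tested. The other 2 are restricted to other tissues, and both were at or near 0. Psma8, an alpha subunit of the testis, measured an FPKM of 0.357, 0, 0.20 and 0.0593 from WT replicate 1 to CD274-null replicate 2 in the order of the labels, with 7, 0, 3 and 1 recovered reads. Psmb11, the cutting subunit of thymic cortical epithelium, was listed at 0 in both WT libraries against 0.293 and 0.166 in CD274-null, with 11 and 7 recovered reads. The 43 tested members spanned 18.2-fold in level, from a mean FPKM over the 4 libraries of 11.6 for Psma3 to 210 for Psma6, both alpha subunits of the same ring. The 7 tested beta subunits lay closer together, from 59.8 for Psmb3 to 173 for Psmb4, and the 9 base subunits from 48.8 for Psmd1 to 127 for Psmc3. The 8 lid subunits spanned 17.7 for Psmd11 to 92.8 for Psmd13. Chaperones stood below most subunits, with mean FPKM of 14.5 to 30.5 for those of the base and of 29.9 to 38.4 for those of the core. A complete particle holds its subunits in fixed proportion, yet Psma3, Psma5 (17.8, named after its value was seen) and Psmd11 lay far below the other genes of their groups.

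**Figure D1:**
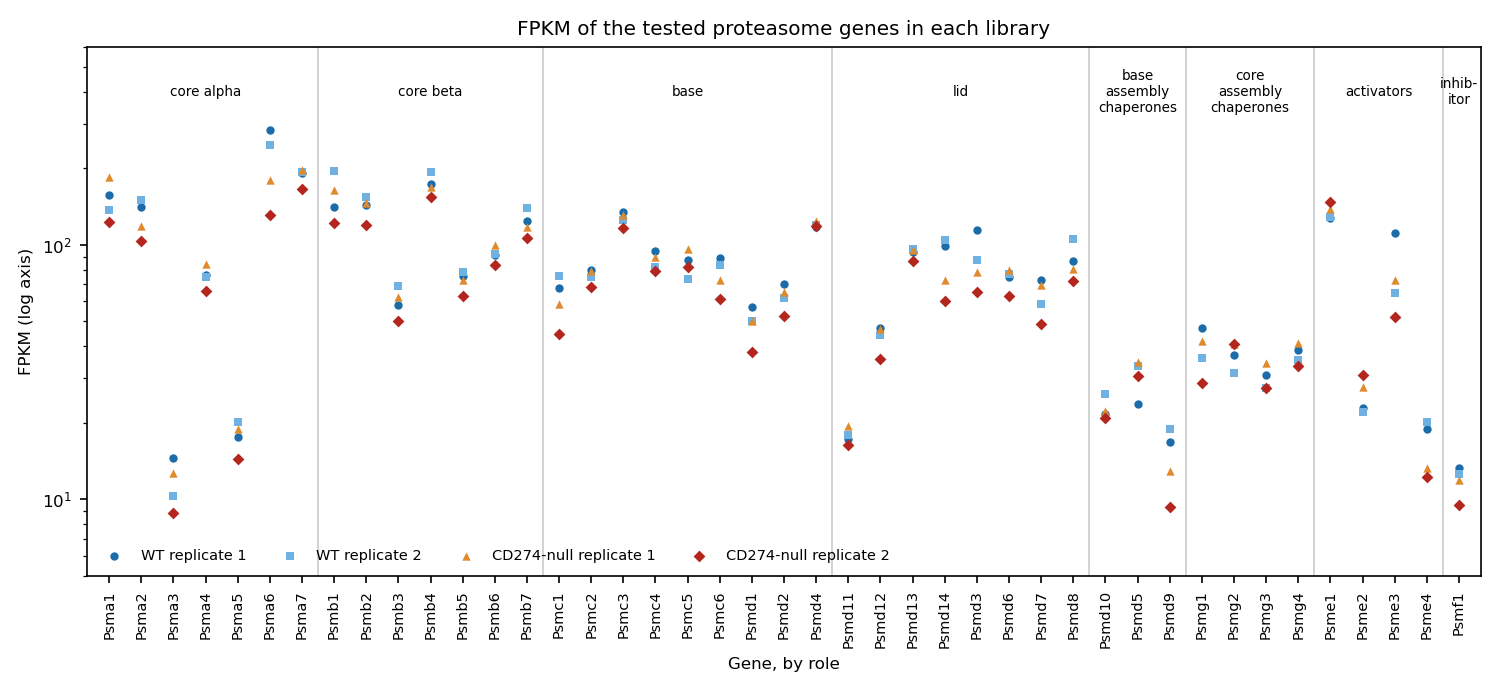
FPKM (log axis) of the 43 tested proteasome genes, grouped by role, with 1 marker for each of the 4 libraries. The red diamond of CD274-null replicate 2 is the lowest marker for 37 of the 43 genes (35.3% of all tested genes are lowest there), and Psma3, Psma5 and Psmd11 sit far below their neighbours.

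The second question was whether any of these genes differed between CD274-null and WT LICs. None of the 43 tested members was a candidate (limma, unadjusted p under 0.01 and fold change above 1.5), where 480 of all 13230 tested genes were (3.63%, with 2.39% higher and 1.24% lower in CD274-null). With voom on the recovered reads the number was also 0. None had a limma adjusted p under 0.05, which 10 of all genes had (0.0756%), and the smallest adjusted p of a member was 0.304. In the alternatives with all 4 libraries, the number over all genes ranged from 0 (GC correction, voom, or no moderation) to 21 (replicate block). At an unadjusted p under 0.05 from limma, 4 members were past the threshold, all lower in the libraries labelled CD274-null, against a background of 5.7% lower and 8.04% higher over all genes. With all 4 libraries this count of members fell to 1 in eBayes without trend and 2 with the replicate block. It rose to 5 with equal medians, with GC correction and, among 45 members tested, without a filter on low values. The log2 fold change on the log2(FPKM + 0.5) scale was below 0 for 33 members and above 0 for 10, where 48.9% of all tested genes lay below 0. Its median was -0.17 over the members and 0.01 over all tested genes. The members share libraries, so this is a description of 4 libraries and not of 43 independent draws. Without CD274-null replicate 2 the median was 0.01, with 20 members below 0 and 23 above, beside a median of 0.08 and 42.3% below 0 over all tested genes.

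**Figure D2:**
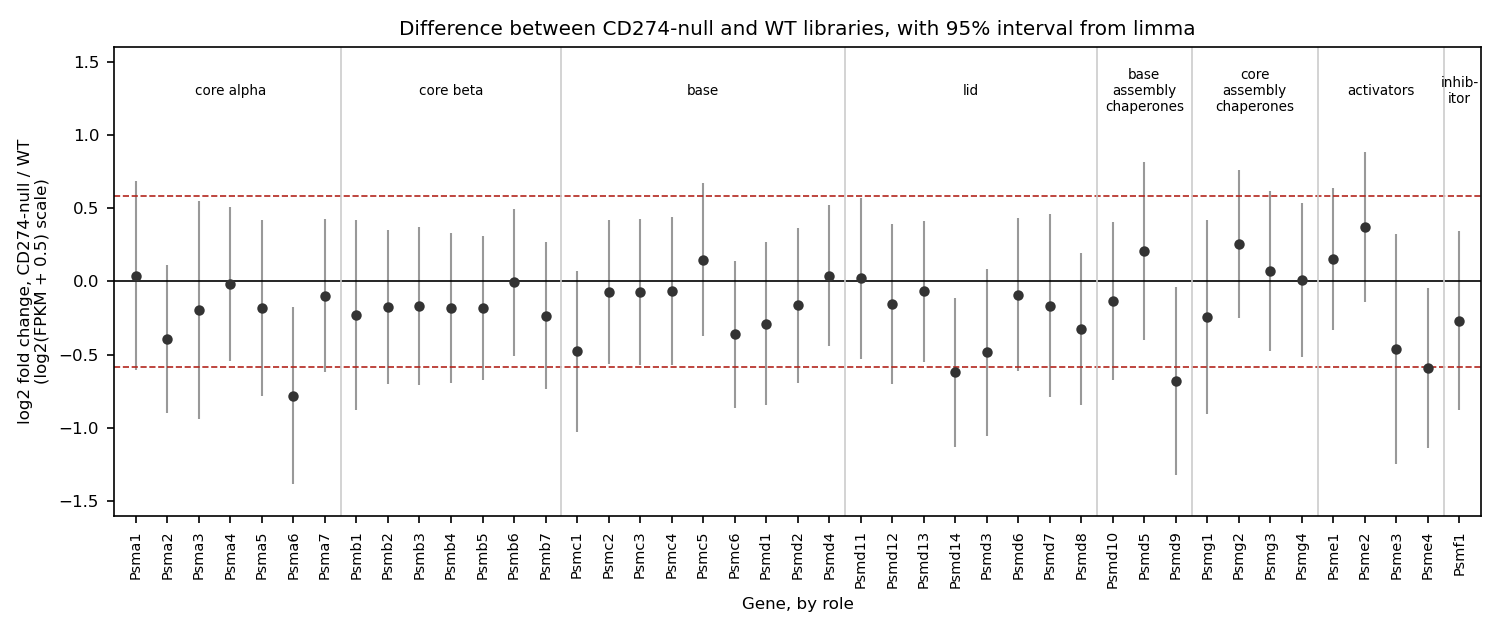
Log2 fold change of CD274-null over WT on the log2(FPKM + 0.5) scale for the 43 tested genes, with 95% intervals from limma (n = 2 libraries per group). The dashed lines mark a 1.5-fold change, 4 intervals leave out 0, all on the lower side, and the intervals of 9 genes lie wholly between the dashed lines.

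The precision of these differences can be read from their intervals. Standard errors of the members ranged from 0.20 for Psmd4 to 0.32 for Psme3 on the log2 scale. The 95% interval from limma lay within a 1.5-fold change in either direction for 9 members, and within a 2-fold change for 36. For those 36 genes a 2-fold difference between the libraries of these labels lies outside the interval, while for most members a 1.5-fold difference does not. Both CD274-null libraries lay below both WT libraries for 13 members, where 21.8% of all tested genes did, and above both for 3 members, where 25.6% of all tested genes did. The groups overlapped for the other 27. The 13 were Psma2 and Psma6 of the alpha ring, Psmb4, Psmb5 and Psmb7 of the beta ring, Psmc1 and Psmc6 of the base, Psmd3, Psmd8 and Psmd14 of the lid, the chaperone Psmd9, the activator Psme4 and Psmf1. The 3 above were the activators Psme1 and Psme2 and the chaperone Psmg2.

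Among the alpha subunits, which form the gate of the core, Psma6 had the highest level and the most negative difference of all members. Psma6 (chromosome 12, 55384222 to 55418459, GRCm38.p6) measured 283 and 247 FPKM in WT against 180 and 131 in CD274-null, from 3262, 2509, 1588 and 1303 recovered reads. Both CD274-null values lay below both WT values, and they differed from each other by more than the WT values did. The log2 fold change of this gene was -0.78 ± 0.25 (SE, limma, unadjusted p = 0.0192, adjusted p = 0.304). It was -0.55 without CD274-null replicate 2 and -1.01 without CD274-null replicate 1. Psma3 (chromosome 12, 70969283 to 70995877), the alpha subunit with the lowest level, had 14.5 and 10.3 in WT against 12.7 and 8.82 in CD274-null. Here the groups overlapped, each held 1 high and 1 low library, and the log2 fold change was -0.20 ± 0.31 (SE), turning to 0.06 without CD274-null replicate 2. Psma1 (chromosome 7, 114264550 to 114276116) had 157 and 137 in WT against 185 and 123 in CD274-null, so that its highest and its lowest value both came from CD274-null libraries. The remaining tested alpha subunits Psma2, Psma4, Psma5 and Psma7 had log2 fold changes from -0.39 for Psma2 to -0.02 for Psma4. All 7 tested alpha subunits had their lowest value in CD274-null replicate 2.

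The beta subunits include the 3 that cut. Psmb5 (chromosome 14, 54614120 to 54617995), the chymotrypsin-like subunit and the site hit by bortezomib, measured 75.7 and 77.9 FPKM in WT against 73.1 and 62.7 in CD274-null. Its log2 fold change was -0.18 ± 0.20 (SE, limma, adjusted p = 0.721), and it was -0.07 without CD274-null replicate 2, -0.29 without CD274-null replicate 1 and -0.39 with GC correction. Psmb6 (chromosome 11, 70525324 to 70527858), the caspase-like subunit, had 91.6 and 91.7 in WT against 99.98 and 83.3 in CD274-null, and the group means were 91.64 ± 0.0414 and 91.62 ± 11.8 (SD, n = 2 each). The WT libraries thus lay between the CD274-null libraries, with a log2 fold change of -0.01 and a 95% interval from -0.51 to 0.50. Psmb7 (chromosome 2, 38588046 to 38643952), the trypsin-like subunit, had 124 and 139 in WT against 118 and 106 in CD274-null. Both CD274-null values lay below WT, by a log2 fold change of -0.24 ± 0.21 (SE, limma, adjusted p = 0.637), which was -0.15 without WT replicate 2 and -0.11 with GC correction. Psmb4 (chromosome 3, 94884324 to 94886958), the most abundant beta subunit, which closes the ring during assembly, had 174 and 194 in WT against 170 and 154 in CD274-null. Psmb3 (chromosome 11, 97703434 to 97713500), the least abundant, had 57.9 and 68.7 against 62.2 and 50.4, with overlapping groups. Over the 7 tested beta subunits the log2 fold changes ran from -0.24 to -0.01, the narrowest span of the subunit groups, and all 7 were lowest in CD274-null replicate 2.

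The base holds the ring of ATPases that unfolds substrates (Psmc1 to Psmc6), the scaffolds Psmd1 and Psmd2, and the ubiquitin receptor Psmd4. Psmc1 (chromosome 12, 100110202 to 100123364) measured 67.8 and 75.3 FPKM in WT against 58.7 and 44.7 in CD274-null, the most negative of the base. The log2 fold change was -0.48 ± 0.23 (SE, limma, unadjusted p = 0.0788, adjusted p = 0.414). It was -0.28 without CD274-null replicate 2 and -0.67 without CD274-null replicate 1. Psmc5 (chromosome 11, 106256185 to 106263112), another ATPase of the same ring, had 87.3 and 73.5 in WT against 96.2 and 82.0 in CD274-null, with a log2 fold change of 0.15 ± 0.22 (SE) that ranged from 0.02 to 0.27 when each library was left out. The ATPases of 1 ring therefore lay on both sides of 0, and neither difference was past the threshold. Psmc3 (chromosome 2, 91054016 to 91059438), the most abundant base gene, had 134 and 126 against 132 and 116. Psmd1 (chromosome 1, 86064619 to 86139295), the large scaffold and the least abundant base gene, had 56.9 and 50.2 against 50.2 and 38.0. Its log2 fold change was -0.29 ± 0.23 (SE), with -0.09 without CD274-null replicate 2 and -0.49 without CD274-null replicate 1. Psmd4 (chromosome 3, 95032688 to 95042614), which binds ubiquitin chains, was the steadiest of all members, with 117, 120, 125 and 119 across WT replicates 1 and 2 and CD274-null replicates 1 and 2. Its log2 fold change was 0.04 with a 95% interval from -0.44 to 0.52, and GC correction turned it to -0.077. In CD274-null replicate 2, where 37 members were at their lowest, Psmd4 stood within the range of the other libraries.

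The lid contains the deubiquitinase that frees the substrate from its ubiquitin chain. This enzyme, Psmd14 (chromosome 2, 61711694 to 61800376), measured 99.4 and 105 FPKM in WT against 72.9 and 60.2 in CD274-null, from 1772, 1647, 993 and 923 recovered reads. The groups stood apart by more than the spread within either, at 102 ± 3.94 and 66.5 ± 8.99 (SD, n = 2 each). On the log2 scale the difference was -0.62 ± 0.21 (SE, limma, unadjusted p = 0.0240, adjusted p = 0.313), and it ranged from -0.76 to -0.48 when each library was left out in turn. Psmd13 (chromosome 7, 140882394 to 140898642), the most abundant lid gene, had 93.5 and 96.3 against 95.2 and 86.2. Psmd11 (chromosome 11, 80428615 to 80473248), the least abundant gene of the lid, had 17.3 and 17.8 against 19.4 and 16.3, with a log2 fold change of 0.02 ± 0.23 (SE) that lay just below 0 under equal medians or quantiles. WT values lay between the CD274-null values for Psmd11, as for Psmb6. The other 5 lid genes, Psmd3, Psmd6, Psmd7, Psmd8 and Psmd12, had log2 fold changes from -0.48 for Psmd3 to -0.09 for Psmd6. Like the alpha and beta subunits, all 8 lid genes were lowest in CD274-null replicate 2.

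Chaperones join subunits into the particle and leave it when it is complete. Among those of the base, Psmd9 (chromosome 5, 123228190 to 123250126) measured 16.8 and 18.9 FPKM in WT against 13.0 and 9.30 in CD274-null, from 240 to 505 recovered reads. Its log2 fold change was -0.68 ± 0.26 (SE, limma, unadjusted p = 0.0415, adjusted p = 0.349). It was -0.45 without CD274-null replicate 2 and -0.91 without CD274-null replicate 1. Psmd10 (chromosome X, 140948425 to 140956711), also known as gankyrin, had 21.6 and 25.8 against 22.2 and 20.8. Psmd5 (chromosome 2, 34852087 to 34870965), a chaperone of the ATPase ring, had 23.6 and 33.3 against 34.7 and 30.4, with the lowest value in WT replicate 1 and a log2 fold change of 0.21 ± 0.25 (SE). These 3 genes thus gave differences of both signs, none past the threshold of a candidate. Psmd5, the only one of them above 0, lay at -0.037 without WT replicate 1.

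The chaperones of the core work as pairs, Psmg1 with Psmg2 and Psmg3 with Psmg4, on the alpha ring. Psmg1 (chromosome 16, 95979933 to 95990960) measured 47.0 and 35.9 FPKM in WT against 42.0 and 28.5 in CD274-null. Its partner Psmg2 (chromosome 18, 67641587 to 67654181) had 37.0 and 31.3 in WT against 40.8 and 40.6 in CD274-null, above WT in both. Their log2 fold changes were -0.24 ± 0.27 (SE) and 0.25 ± 0.21 (SE), and the difference between the partners was not tested. Without CD274-null replicate 2 both lay above 0, at 0.03 and 0.26, and without WT replicate 2 Psmg2 lay at 0.14. Psmg3 (chromosome 5, 139823613 to 139826894) had 30.8 and 27.4 against 34.2 and 27.3. Psmg4 (chromosome 13, 34162964 to 34178172) had 38.5 and 35.2 against 41.2 and 33.4. In this second pair the groups overlapped, and the log2 fold changes of 0.07 and 0.01 took either sign depending on which library was left out, and GC correction turned that of Psmg4 to -0.16.

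Activators cap the core in place of the regulatory particle. Psme1 and Psme2, which are raised by interferon and together form the cap used in antigen processing, both had higher values in the CD274-null libraries than in WT. Psme1 (chromosome 14, 55578494 to 55581527) measured 127 and 129 FPKM in WT against 138 and 147 in CD274-null, a log2 fold change of 0.15 ± 0.20 (SE), which GC correction turned to -0.046. Psme2 (chromosome 14, 55587440 to 55591101) had 22.9 and 22.0 against 27.7 and 30.8, a log2 fold change of 0.37 ± 0.21 (SE, limma, adjusted p = 0.473). The antigen-presenting cell markers, summed, were also higher in both CD274-null libraries, although H2-Ab1 alone overlapped between the groups. Their sum was higher in CD274-null replicate 1 (68.1) than in replicate 2 (39.2), where Psme1 and Psme2 were higher in replicate 2. The part of these markers in the values of Psme1 and Psme2 was not tested. Psme1 and Psme2 were the only tested members with their highest value in CD274-null replicate 2, where 21% of all tested genes had theirs. Psme3 (chromosome 11, 101316213 to 101323537), the nuclear activator, had 112 and 64.4 against 72.6 and 52.2, with WT replicate 1 far above the rest. The fitted log2 fold change was -0.46 ± 0.32 (SE), with -0.06 without that library, -0.85 without WT replicate 2, -0.70 without CD274-null replicate 1 and -0.22 without CD274-null replicate 2. Psme4 (chromosome 11, 30771775 to 30881150), the single-chain activator linked to acetylated histones, had 18.9 and 20.03 in WT against 13.3 and 12.2 in CD274-null. Here both groups were tight, at 19.4 ± 0.825 and 12.8 ± 0.777 (SD, n = 2 each), and the log2 fold change was -0.59 ± 0.22 (SE, limma, unadjusted p = 0.0379, adjusted p = 0.346). It stayed between -0.65 and -0.53 when each library was left out in turn, the narrowest such range of the 4 members under an unadjusted p of 0.05 with all libraries. Psmf1 (chromosome 2, 151716062 to 151744199), named as an inhibitor of the core, had 13.3 and 12.6 against 11.9 and 9.53. Its log2 fold change was -0.27 ± 0.25 (SE), with -0.11 without CD274-null replicate 2 and -0.42 without CD274-null replicate 1.

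The members were then followed library by library, because CD274-null replicate 2 held so many of the lowest values. It was the lowest library for 37 of the 43 tested members, where it was the lowest for 35.3% of all tested genes. The 6 exceptions were Psmc5, Psmd4, Psmd5, Psmg2, Psme1 and Psme2. The deviation of a gene in a library is its log2(FPKM + 0.5) minus the mean of that gene over the 4 libraries. Its median over the members was 0.06 and 0.05 for WT, then 0.06 for CD274-null replicate 1 and -0.23 for replicate 2. Over all tested genes the medians were -0.04, 0.03, 0.08 and -0.06. By the median over the members, CD274-null replicate 1 stood with the WT libraries, though its median over all tested genes was the highest of the 4. The summed FPKM of the members was 3602 and 3549 for WT, then 3430 and 2862 for CD274-null replicates 1 and 2. By this sum both CD274-null libraries lay below both WT libraries. Of the 43 members, 41 were higher in CD274-null replicate 1 than in replicate 2, as were 65.4% of all tested genes, and the exceptions were Psme1 and Psme2. Between the WT libraries 21 were higher in replicate 1 and the others in replicate 2. Of the 4 neutrophil markers, Ltf and Camp were highest in CD274-null replicate 2, at 216 and 5918 FPKM, while Ngp and Mmp8 were highest in WT replicate 1, at 5231 and 16.5 FPKM. The 6 erythroid markers measured summed to 2.54 and 55.6 in WT against 4.73 and 0.480 in CD274-null, lowest in this library too. The part of either list in the low values of the members was not tested.

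**Figure D3:**
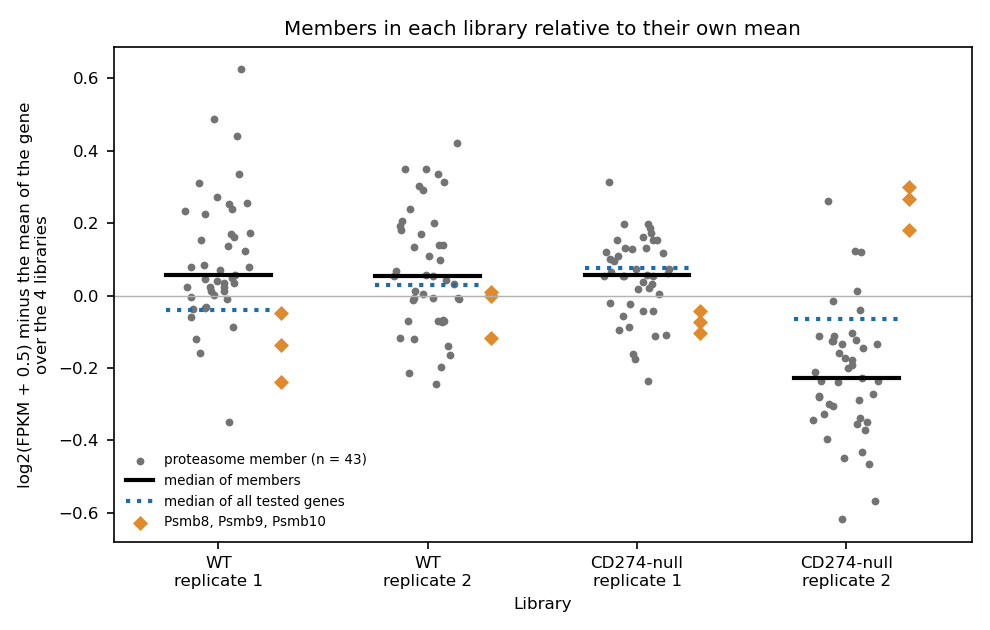
Deviation of each of the 43 tested members (grey points, spread sideways at random) from its own mean over the 4 libraries on the log2(FPKM + 0.5) scale, with the median of members (black line), the median of all tested genes (dotted line) and the 3 inducible subunits (orange). The black line lies at -0.23 in CD274-null replicate 2, where the inducible subunits lie above 0.

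The position of this library depended in part on how the libraries were scaled. With quantile normalization it was lowest for 36 members and for 31.5% of all tested genes, with equal medians for 33 and 29.4%, and after correction of each library for GC content for 27 and 30.5%. The members themselves had a GC content close to that of other genes, with a median of 49.7% of their longest GENCODE transcript against 49.8% over the 11435 tested genes with a value. Within the groups the ratio of the higher to the lower library had a median over the members of 1.12 in WT and 1.20 in CD274-null, against 1.303 and 1.23 over all tested genes. The members were thus closer between replicates than other genes were in WT, as a description without a test. All tested genes reach down to a mean FPKM of 0.5 and the tested members only to 11.6, and no comparison at equal level was made.

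The inducible counterparts of the 3 cutting subunits ran the other way in the same library. Psmb8, which replaces Psmb5, measured 102 and 112 FPKM in WT against 109 and 127 in CD274-null. Psmb9, which replaces Psmb6, had 53.7 and 63.9 against 60.3 and 78.2. Psmb10, which replaces Psmb7, had 56.2 and 53.6 against 54.1 and 70.1. All 3 had their highest value in CD274-null replicate 2 (as did 21% of all tested genes), where 37 constitutive members had their lowest, and CD274-null replicate 1 lay within the range of the WT libraries for each. Their log2 fold changes were 0.14, 0.23 and 0.17 (SE 0.21, 0.23 and 0.22, with limma adjusted p of 0.804, 0.684 and 0.769), and none was a candidate. Without CD274-null replicate 2 they were 0.03, 0.04 and -0.02, and with GC correction 0.03, 0.08 and -0.043. Without CD274-null replicate 1 they were 0.25, 0.41 and 0.35. As ratios of FPKM, which cancel the depth of a library, Psmb8 over Psmb5 was 1.35 and 1.44 in WT, against 1.49 and 2.03 in CD274-null. Psmb9 over Psmb6 was 0.586, 0.697, 0.603 and 0.940 in the same order, and Psmb10 over Psmb7 was 0.453, 0.384, 0.460 and 0.662. In each ratio CD274-null replicate 2 stood above the other 3 libraries. Both CD274-null libraries lay above both WT libraries for Psmb8 over Psmb5 and Psmb10 over Psmb7, by a small margin in CD274-null replicate 1, and the groups overlapped for Psmb9 over Psmb6. The ratios were not corrected for GC content. With GC correction the log2 fold changes of Psmb10 and Psmb7 came closer, to -0.043 and -0.11 from 0.17 and -0.24. Those of Psmb8 and Psmb5 moved apart, to 0.03 and -0.39 from 0.14 and -0.18. Psmb8 was the only inducible subunit with more RNA per length than its constitutive counterpart in every library.

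**Figure D4:**
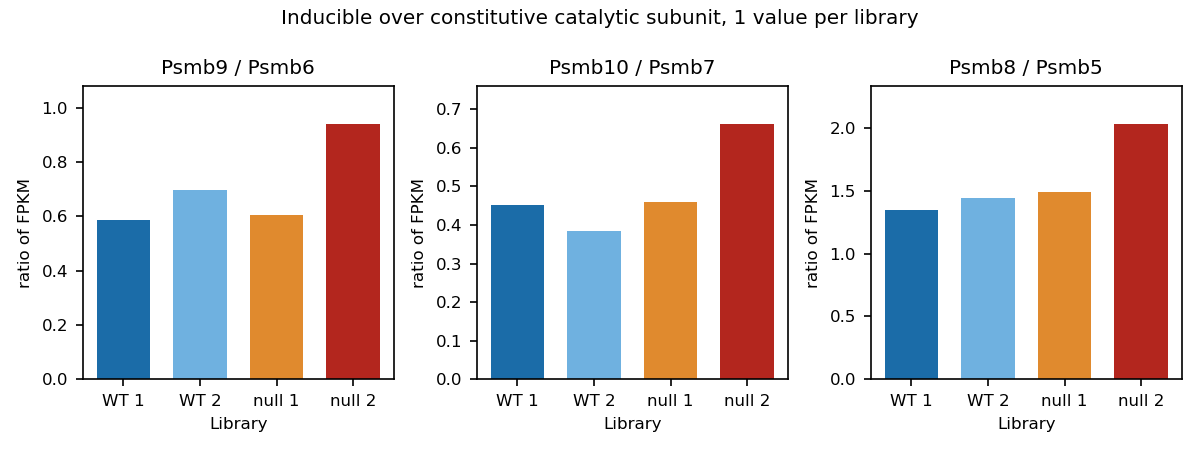
Ratio of FPKM of each inducible cutting subunit to the constitutive one it replaces, 1 bar per library, on axes that start at 0. CD274-null replicate 2 has the highest bar in all 3 panels, at 0.940, 0.662 and 2.03, and CD274-null replicate 1 stays nearer the WT bars than to CD274-null replicate 2.

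The activators were also set against each other. Psme1 over Psme4 was 6.75 and 6.44 in WT against 10.4 and 12.04 in CD274-null, so both CD274-null libraries stood above both WT libraries. Psme2 over Psme3 was 0.205 and 0.342 in WT against 0.381 and 0.590 in CD274-null, again without overlap between the groups. Psme1 over Psme2, partners in 1 ring, was 5.56 and 5.86 in WT against 5.0 and 4.77 in CD274-null, also without overlap but lower in CD274-null. These ratios were formed from genes whose values were already known and carry no test.

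Of a list of 41 further genes of the pathway, 40 were matched and tested (the other was not analysed here), and 20 lay higher and 20 lower in CD274-null. Only 1 was a candidate, against 3.63% of all tested genes. This gene, Ecpas (chromosome 4, 58797234 to 58917748), a scaffold that binds both core and regulatory particle, rose from 41.5 and 47.2 in WT to 73.6 and 78.9 in CD274-null. Its log2 fold change was 0.78 ± 0.20 (SE, limma, unadjusted p = 0.00795, adjusted p = 0.274). Its unadjusted p exceeded 0.01 in 8 of 16 alternative fits, among them the replicate block (0.0111) and every fit without 1 library. At an unadjusted p under 0.05, 2 genes were higher (Ecpas and Nfe2l2) and 2 lower (Rad23b and Faf1), against 8.04% and 5.7% of all tested genes.

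The transcription factors that control the constitutive genes lay on opposite sides of 0. Nfe2l1, which raises proteasome genes when proteolysis is short, measured 37.1 and 33.0 FPKM in WT against 26.3 and 25.1 in CD274-null, a log2 fold change of -0.44 ± 0.21 (SE, limma, adjusted p = 0.414). Nfe2l2, which raises genes of the oxidative stress response, had 23.4 and 16.4 in WT against 31.2 and 60.6 in CD274-null. Its highest value came from CD274-null replicate 2, and its log2 fold change was 1.13 ± 0.36 (SE, limma, unadjusted p = 0.0199, adjusted p = 0.306). This was 0.66 without that library and 1.61 without CD274-null replicate 1. Pomp, the maturation factor of the core, had 117 and 157 against 163 and 124, and Adrm1, a ubiquitin receptor of the regulatory particle, had 17.8 and 16.9 against 20.3 and 17.6. Usp14, a deubiquitinase that binds the base, had 33.2 and 31.4 against 34.1 and 22.5. Like most members, Usp14 was lowest in CD274-null replicate 2.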

How the data were processed

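RNA of the 4 libraries was prepared by the authors with TruSeq v2, sequenced on a HiSeq2500 and, per the methods and the submitters' processing notes, handled with CASAVA 1.8.2 and aligned to GRCm38 with TopHat2 2.0.12. Deposited were FPKM values, 1 for each gene in each library, which the authors had scaled for gene length and depth. The counting program, gene lengths and strand setting are not given in the sources used here. Genes were named by NCBI gene number through RefSeq GRCm38.p6, with a symbol for 25275 of 27179, and 37 members had a RefSeq promoter. Reads were recovered from FPKM steps, for 100% of 17083 genes, and give the depth in the text. WT and CD274-null libraries were compared with limma (version 3.58.1, run in R 4.3.3, eBayes with an intensity trend, no covariates). The fit used log2(FPKM + 0.5) of all 13230 genes whose FPKM averaged 0.5 or more, and p-values were adjusted over this whole set by Benjamini-Hochberg. This scale understates changes of low genes. A gene was a candidate at p under 0.01, unadjusted, together with a change of more than 1.5-fold. On simulated reads for 13074 genes, 74.7% of 99 genes changed 2-fold, 97.9% of 95 changed 4-fold and 0.955% of unchanged genes were called. The simulation gave every gene the same fixed spread between libraries and no difference in cell content. These shares therefore need not hold for the real libraries. Named were any member past a threshold, the cutting subunits, Psmd14, Psmd4, the activators, inhibitor, chaperones and tissue-restricted members, and in each subunit group the members with the highest and lowest level and difference, with 8 fixed companions and companions that were candidates. The members and lists were chosen with earlier results of these data known. Alternatives were other pseudocounts, filters and scalings, no trend, the replicate block and leaving out each library, with voom on recovered reads, GC correction (loess, span 0.3) and a linear model without moderation added after the data were seen. Scripts ran in Python 3.11.15.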

Additional observations from a re-analysis of the deposited data

How the results depend on the processing

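In 16 alternatives no member became a candidate. The candidates over all genes, 480, numbered 283 with GC correction and the replicate block, 170 in a linear model without moderation and 147 to 634 when each library was left out in turn (235 without CD274-null replicate 1 and 147 without CD274-null replicate 2). Of the candidates, 316 were higher and 164 lower, against 253 and 210 with equal quantiles, 247 and 200 with equal medians and 160 and 162 with GC correction. The median of the members ranged from -0.31 to 0.010 when each library was left out, and the members below 0 from 20 to 37, both ends being those without 1 CD274-null library. The replicate block gave 526 candidates, 21 genes with an adjusted p under 0.05 and 0 candidate members. Same-numbered libraries did not deviate together over all tested genes (correlation -0.02). The numbers were read as names of libraries, and whether they also pair them cannot be told from 2 libraries per group.

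GC correction, with or without the block, turned the log2 fold changes of Psmd4 (-0.077), Psme1 (-0.046), Psmg4 (-0.16), Psmb10 (-0.043) and Adrm1 (-0.056). Equal medians turned Psmg4 (-0.013) and Psmd11 (-0.0034), and equal quantiles Psmd11 (-0.017). Leaving out each library gave a range across 0 for Psmb6 (-0.14 to 0.12), Psmg1 (-0.52 to 0.033), Psmg3 (-0.089 to 0.23), Psmg4 (-0.14 to 0.16), Psmd5 (-0.037 to 0.45), Psma3 (-0.45 to 0.055), Psma1 (-0.26 to 0.33), Psmc3 (-0.16 to 0.017), Psmd13 (-0.14 to 0.0049), Psmd11 (-0.10 to 0.14), Psmb10 (-0.020 to 0.35), Pomp (-0.15 to 0.28) and Usp14 (-0.51 to 0.076). With all 4 libraries each of these genes lay within 1 standard error of 0, and the cause was not tested. Fits that left a group with 1 library assume that it varies like the others. The tested members rest on at least 126 recovered reads per library, and the spread estimated from 2 libraries per group is largely borrowed from other genes.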
